A study of Mus musculus with 18 samples.

Results

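Messenger RNA levels of 10 genes of fatty acid uptake and lipid droplets were followed in a mouse mammary carcinoma line called NaF. The genes were taken by name, with earlier results of these data known. Each had 1 probe set on the array among the 22180 genes measured through a probe set of a single symbol. They are the uptake genes Cd36, Slc27a1 and Slc27a4, the triglyceride synthesis genes Dgat1 and Dgat2, the droplet genes Hilpda and Plin3, and the lipase genes Pnpla2, Lipe and Mgll. Cells on 12 arrays had been kept in DMEM with 10% charcoal-treated FBS from 48 h before treatment. For 6 h they received all-trans retinoic acid (the natural ligand of the retinoic acid receptors, RAR), TTNPB (a synthetic RAR agonist) or GW1516 (a synthetic PPARδ agonist), each at 1 µM, or served as charcoal-serum controls. On another 6 arrays the cells stayed in DMEM with 10% FBS and received palmitate, a saturated fatty acid, at 10 µM for 6 h, or stayed untreated as full-medium controls. Each of the 6 groups had 3 arrays. All arrays came from 1 cell line, and the labels do not say whether replicates were separate cultures, so p-values here speak only of array-to-array spread, which may be technical.

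Cells take up fatty acids with the help of CD36 and of the FATP transport proteins, and couple them to coenzyme A. The DGAT enzymes join a further acyl chain to diacylglycerol to make triglyceride, which is stored in droplets coated by perilipins. Lipolysis then runs in steps: PNPLA2 (ATGL) removes the first chain, LIPE (hormone-sensitive lipase) the next, and MGLL (monoacylglycerol lipase) the last. HILPDA and G0S2 are inhibitors of PNPLA2. Fatty acids freed by lipolysis can serve as ligands of the PPAR receptors, and several droplet genes are known PPAR targets in other tissues.

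The region around the start of Pnpla2 is shown because it is the only gene of the 10 that passed the test against a control. A start of Lipe is shown as an example, among several genes, of a match to one of the motifs searched. Both are RefSeq windows on GRCm38.p6, from 250 bases before the transcription start to 50 after it, written 5′ to 3′ along the gene. The Pnpla2 window lies at chr7:141454938-141455237 on the plus strand. The Lipe window shown lies at chr7:25395938-25396237 on the minus strand. Another Lipe window, at chr7:25390063-25390362, held no match and is not shown. The capitals in the Lipe window mark the 6 bases covered by ACGTG matches on both strands, which overlap.
Pnpla2: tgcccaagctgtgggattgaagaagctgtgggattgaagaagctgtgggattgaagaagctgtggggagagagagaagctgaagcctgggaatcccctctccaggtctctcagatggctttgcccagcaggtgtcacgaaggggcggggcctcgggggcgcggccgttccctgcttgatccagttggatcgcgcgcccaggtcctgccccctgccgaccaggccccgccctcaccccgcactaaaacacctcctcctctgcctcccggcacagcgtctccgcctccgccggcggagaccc
Lipe: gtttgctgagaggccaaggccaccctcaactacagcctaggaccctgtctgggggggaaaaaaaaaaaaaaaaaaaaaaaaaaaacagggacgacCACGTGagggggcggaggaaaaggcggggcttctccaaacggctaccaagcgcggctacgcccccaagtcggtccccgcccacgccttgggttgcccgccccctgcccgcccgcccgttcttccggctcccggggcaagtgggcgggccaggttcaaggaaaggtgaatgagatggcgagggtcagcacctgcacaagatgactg
RefSeq windows were at hand for 8 of the 10 genes, 13 windows in all; Dgat1 and Dgat2 are named only. Both strands of each window were searched for the nuclear receptor half-site AGGTCA, for direct repeats of AGGTCA spaced by 1 base (DR1, bound by PPAR with RXR) or by 2 or 5 bases (DR2 and DR5, bound by RAR with RXR), and for ACGTG, the core of the hypoxia response element and part of many E-boxes. No repeat was found in the 13 windows, and the shares among all 32851 mouse windows were 0.0396% for DR1 and 0.00913% each for DR2 and DR5. The half-site stood in 1 of the 13 windows, that of Cd36 on the strand opposite to the gene, and in 16.3% of all windows. ACGTG stood in 5 of the 13 windows, of Hilpda, Mgll, Lipe and Slc27a1, and in 19.6% of all windows. The Pnpla2 window held none of these motifs.

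Of the 10 genes, 8 were above background in all 6 groups, a level reached by 40.6% of all genes. Background was the 95th percentile of the levels of olfactory and vomeronasal receptor genes, and on the log2 scale of the array values it was 1.15 (retinoic acid), 1.29 (TTNPB), 1.30 (GW1516), 1.31 (charcoal-serum controls), 0.626 (palmitate) and 0.593 (full-medium controls). The arrays of the 2 sera differ in their whole distribution, with medians over all probe sets of 1.06 to 1.32 on the charcoal-serum arrays and 0.473 to 0.548 on the full-medium arrays. They may have been scaled apart, so no level is compared across the sera. GW1516 replicate 3 stood apart: its values lay on average 0.231 from its group's mean, against 0.0816 to 0.145 on the other arrays. Its median over the receptor genes was 0.995, against 0.715 and 0.677 on the other GW1516 arrays. Differences of single genes that involve GW1516 are given with and without it where that moves the value by over 1.5 times or changes a call. Palmitate replicate 2, left out together with it in 1 setting, lay 0.113 from its group's mean, within the range of the other arrays. Of the markers that define mammary epithelium, Krt18, Cdh1 and Krt8 were above background in every group, while Krt14 and Elf5 were not. Krt18, Cdh1 and Krt8 stood at 7.99, 4.88 and 1.68 in charcoal-serum controls, against a background of 1.31. Epcam was above background in the charcoal-serum groups, with 1.51 against a background of 1.31 in the controls, and under it in both full-medium groups. Of 6 measured adipocyte markers, at most 1 (Plin1) was above background in any group. Adipoq, Fabp4, Cidec, Lep and Pparg were at or under background in all 6 groups. Single markers of other cell types were above background too, among them Cdh5, Pdgfra and Cd68, at 8.90, 4.88 and 1.82 in charcoal-serum controls. Summed levels of the 6 adipocyte markers ran from 5.62 to 6.30 with retinoic acid, 5.67 to 6.32 with TTNPB, 5.54 to 6.67 with GW1516 and 5.78 to 5.94 in charcoal-serum controls, and their part in the results was not tested.

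**Figure D1:**
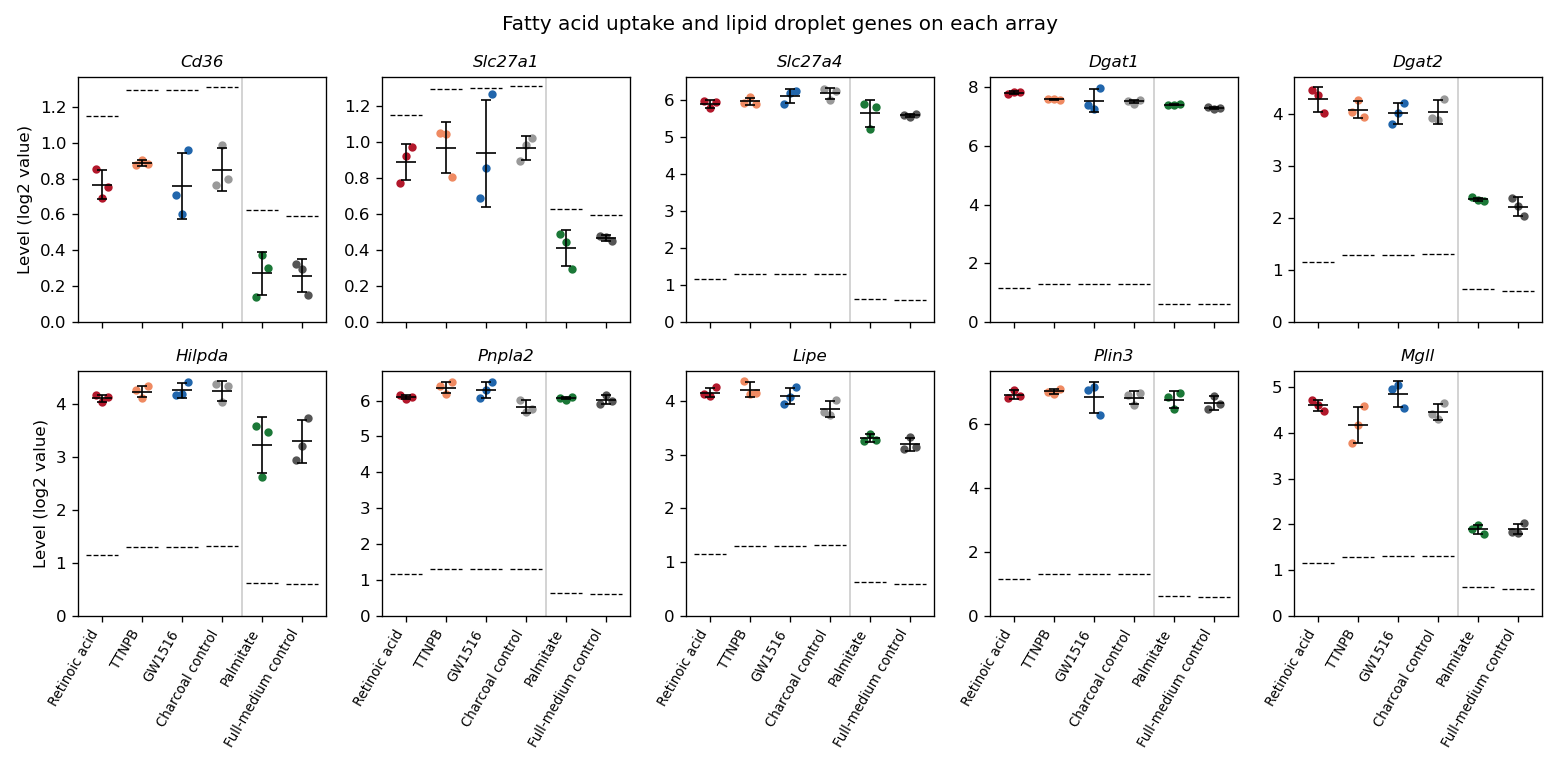
Level (log2 value) of each of the 10 genes on each array, by group, with the mean and SD of 3 arrays as black bars and the background of each group as a dashed line. Charcoal-serum groups stand left of the vertical line and full-medium groups right of it. Cd36 and Slc27a1 lie under the dashed line on every array, and the other genes above it.

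The uptake genes fell into a pair that could not be measured and one that could. Cd36, the scavenger receptor that binds long-chain fatty acids (chromosome 5, 17781690 to 17888959), had group means from 0.76 to 0.89 on the charcoal-serum arrays, and 0.27 with palmitate against 0.26 in full-medium controls. Slc27a1, which encodes the transporter FATP1 (chromosome 8, 71568728 to 71587307), had group means from 0.89 to 0.97 on the charcoal-serum arrays, and 0.41 with palmitate against 0.47 in full-medium controls. Both were under background on all 18 arrays, so no change in either could be read.

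Slc27a4, which encodes the transporter FATP4 (chromosome 2, 29802634 to 29817522), was well measured and passed the test nowhere. It stood at 5.97, 5.78 and 5.95 with retinoic acid, 5.92, 6.08 and 5.91 with TTNPB, 5.89, 6.20 and 6.26 with GW1516, and 6.30, 6.01 and 6.25 in charcoal-serum controls. The 3 retinoic acid arrays were all below the 3 controls, with a log2 difference of -0.29 (95% interval -0.60 to 0.03, limma adjusted p = 0.365). The TTNPB and GW1516 arrays overlapped those of the controls, and the GW1516 difference was -0.07, or -0.14 without replicate 3 (limma adjusted p = 0.866 and 0.671). In full medium the levels were 5.90, 5.22 and 5.80 with palmitate and 5.61, 5.55 and 5.61 in controls, and palmitate replicate 2 was the lowest of the 6.

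The triglyceride synthesis genes were both expressed, and neither passed the test. Dgat1 (chromosome 15, 76502012 to 76512021) encodes the enzyme that mainly re-esterifies fatty acids taken up or released within the cell. Its levels were 7.76, 7.85 and 7.85 with retinoic acid, 7.62, 7.60 and 7.59 with TTNPB, 7.39, 7.26 and 7.98 with GW1516, and 7.54, 7.45 and 7.57 in charcoal-serum controls. All retinoic acid arrays and all TTNPB arrays were above the controls, while the GW1516 arrays spread around them. The retinoic acid difference was 0.30 (95% interval 0.04 to 0.57), with an unadjusted p of 0.0274 and a limma adjusted p of 0.218. With GW1516 replicate 3 and palmitate replicate 2 left out of the fit, the same Dgat1 difference passed (limma adjusted p = 0.00269). Neither array is in that comparison, and the difference itself stayed 0.30. It passed in 3 of 17 other settings, and in 0 of the 6 that left out 1 of its arrays. The GW1516 difference was 0.02, and it was -0.20 without replicate 3 (limma adjusted p = 0.952 and 0.13). Dgat1 was 7.40, 7.39 and 7.45 with palmitate and 7.34, 7.27 and 7.30 in full-medium controls, groups that did not overlap and whose means differed by 0.11.

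Dgat2 (chromosome 7, 99153663 to 99182713), whose enzyme mainly uses newly made fatty acids in liver and fat, varied more from array to array. It stood at 4.46, 4.37 and 4.02 with retinoic acid, 4.04, 4.27 and 3.95 with TTNPB, 3.81, 4.03 and 4.21 with GW1516, and 3.92, 3.89 and 4.30 in charcoal-serum controls. Every ligand group overlapped the controls, and the GW1516 difference was -0.02, or -0.12 without replicate 3 (limma adjusted p = 0.972 and 0.758). With palmitate it was 2.40, 2.35 and 2.33, against 2.39, 2.24 and 2.03 in full-medium controls, and these groups overlapped too.

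Both droplet genes were expressed at levels that the treatments did not move past the test. Hilpda (chromosome 6, 29272488 to 29275449) encodes a small droplet protein that is induced by hypoxia and inhibits PNPLA2. It was 4.16, 4.03 and 4.12 with retinoic acid, 4.26, 4.11 and 4.33 with TTNPB, 4.16, 4.19 and 4.41 with GW1516, and 4.36, 4.03 and 4.34 in charcoal-serum controls. The GW1516 difference was 0.01, or -0.07 without replicate 3 (limma adjusted p = 0.99 and 0.909), and all ligand groups overlapped the controls. In full medium it was 3.59, 2.62 and 3.47 with palmitate and 2.93, 3.21 and 3.73 in controls, the widest scatter of the 10 genes. Its pooled SD within groups was 0.292, against a median of 0.190 over the genes above background in all groups.

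Plin3 (chromosome 17, 56278962 to 56290511) encodes a perilipin that moves from the cytosol to nascent droplets. Its levels were 6.82, 7.10 and 6.90 with retinoic acid, 7.02, 6.96 and 7.13 with TTNPB, 7.09, 7.18 and 6.29 with GW1516, and 6.93, 6.60 and 6.99 in charcoal-serum controls. All 3 ligand groups overlapped the controls, and the lowest value came from GW1516 replicate 3. The GW1516 difference was 0.02, and 0.30 without that array (limma adjusted p = 0.981 and 0.293). With palmitate Plin3 was 6.86, 6.48 and 6.98, against 6.47, 6.89 and 6.65 in full-medium controls.

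The lipase genes held the one change that passed the test. Pnpla2 (probe set 17484909, chromosome 7, 141455188 to 141460743), the lipase of the first step, was 6.40, 6.19 and 6.51 with TTNPB, 6.08, 6.30 and 6.53 with GW1516, 6.15, 6.04 and 6.10 with retinoic acid, and 6.03, 5.68 and 5.77 in charcoal-serum controls. In all 3 ligand groups every array lay above every control. Pnpla2 rose 1.45-fold with TTNPB, a log2 difference of 0.54 ± 0.13 (SE, 95% interval 0.27 to 0.80, limma adjusted p = 0.0403). With GW1516 the difference was 0.48 (95% interval 0.21 to 0.74, limma adjusted p = 0.052), and with retinoic acid 0.27 (95% interval 0.01 to 0.54, limma adjusted p = 0.288). The 3 comparisons share their control arrays. In full medium Pnpla2 was 6.07, 6.03 and 6.10 with palmitate and 5.91, 6.17 and 6.00 in controls, which overlapped.

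The TTNPB call for Pnpla2 was close to the threshold. With GW1516 replicate 3 and palmitate replicate 2 left out of the fit its limma adjusted p was 0.00631. Neither array is in that comparison, and the difference itself stayed 0.54. The call held in 9 of 17 other settings, and the log2 difference ran from 0.46 to 0.64 over all 17. It was lost without TTNPB replicate 1 (adjusted p = 0.149) or 3 (0.17) and without charcoal-serum control replicate 2 (0.16) or 3 (0.127), in limma fits with the Benjamini-Hochberg adjustment. The GW1516 difference passed in 5 of 17 other settings, and without GW1516 replicate 3 it was 0.36 (limma adjusted p = 0.113).

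**Figure D2:**
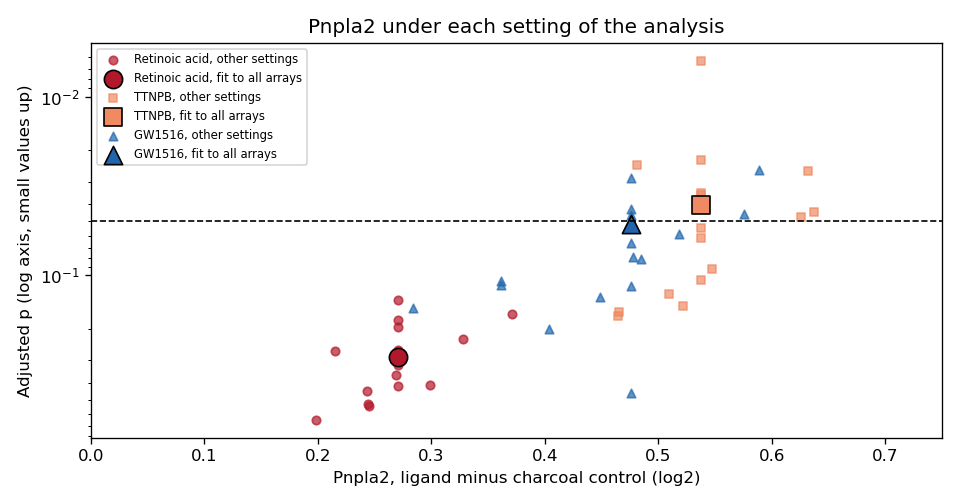
Pnpla2 difference from charcoal-serum control (log2) and its adjusted p on a log axis with small values up, for retinoic acid, TTNPB and GW1516, in the fit reported here (large symbols) and in each of 17 other settings (small symbols). The dashed line is the threshold of 0.05. The difference is positive in every setting shown. The TTNPB and GW1516 symbols lie on both sides of the threshold, and all retinoic acid symbols miss it.

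Over the 12 charcoal-serum arrays, the genes whose levels most resembled those of Pnpla2 were Gpbp1l1, with a Pearson r of 0.901, Btg1 with 0.885 and Ehbp1 with 0.882, among 10300 genes above background in these groups. These values describe arrays that share the treatment groups and the array scale, and carry no test.

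Lipe (chromosome 7, 25379527 to 25398486), the lipase of the next step, leaned the same way in the charcoal serum without passing the test. It was 4.13, 4.09 and 4.25 with retinoic acid, 4.37, 4.12 and 4.14 with TTNPB, 3.95, 4.08 and 4.25 with GW1516, and 3.80, 3.73 and 4.01 in charcoal-serum controls. The retinoic acid and TTNPB arrays all lay above the controls, and the lowest GW1516 array lay below the highest control. The differences were 0.31 with retinoic acid (95% interval 0.04 to 0.57, limma adjusted p = 0.222), 0.36 with TTNPB (95% interval 0.09 to 0.63, limma adjusted p = 0.222) and 0.24 with GW1516, and 0.16 without its replicate 3 (limma adjusted p = 0.383 and 0.561). Lipe was 3.26, 3.39 and 3.27 with palmitate and 3.11, 3.33 and 3.14 in full-medium controls, with overlap.

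Mgll (chromosome 6, 88724412 to 88828360), the lipase of the last step and also the enzyme that breaks down the endocannabinoid 2-arachidonoylglycerol, set the ligands apart most, short of the threshold. Its levels were 4.71, 4.60 and 4.48 with retinoic acid, 3.78, 4.17 and 4.58 with TTNPB, 4.97, 5.05 and 4.54 with GW1516, and 4.40, 4.31 and 4.65 in charcoal-serum controls. The TTNPB arrays spread widely below and among the controls, and 2 of the 3 GW1516 arrays lay above all controls. The differences from control were -0.28 with TTNPB (95% interval -0.65 to 0.10, limma adjusted p = 0.657) and 0.40 with GW1516 (95% interval 0.02 to 0.77, limma adjusted p = 0.288). Without GW1516 replicate 3 the GW1516 difference was 0.56 (limma adjusted p = 0.104). In full medium Mgll was 1.90, 1.98 and 1.79 with palmitate and 1.84, 1.82 and 2.02 in controls.

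Counted over the 10 genes, retinoic acid changed 0, against 5.29% of all genes. TTNPB changed 1, against 1.26% of all genes in either direction and 0.618% that rose. GW1516 changed 0, against 2.57% of all genes, and palmitate 0, against 0.681%. At an unadjusted p under 0.05 the same limma fit counted 3 of the 10 genes with retinoic acid (Dgat1, Pnpla2 and Lipe), against 16.4% of all genes. It counted 2 with TTNPB (Pnpla2 and Lipe), against 11.2%, 2 with GW1516 (Pnpla2 and Mgll), against 15.4%, and 0 with palmitate, against 7%. The arrays of the 2 groups did not overlap for 4 of the 10 genes with retinoic acid (24.1% of all genes), 3 with TTNPB (17.9%), 1 with GW1516 (16.3%) and 1 with palmitate (15.2%). The median log2 difference of the 10 genes was 0.12 with retinoic acid, 0.04 with TTNPB, 0.01 with GW1516 and 0.05 with palmitate, beside -0.03, -0.00, -0.01 and -0.00 over all genes.

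**Figure D3:**
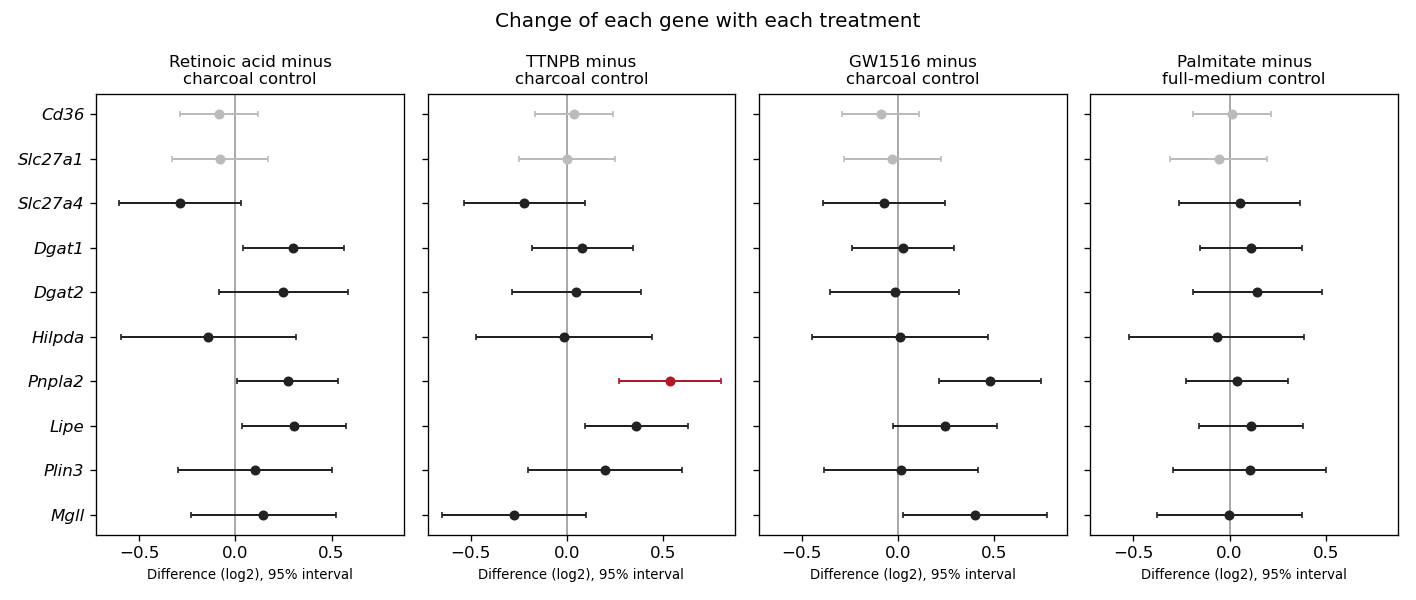
Log2 difference of each gene from its same-serum control, as points with 95% intervals, for retinoic acid, TTNPB, GW1516 and palmitate. Grey marks the genes under background and red a difference past the adjusted threshold, which is Pnpla2 with TTNPB alone, at 0.54.

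The palmitate differences were small. In the fit that pools the spread over all groups, the 95% interval of the palmitate difference lay within 1.5-fold in either direction for all 8 measurable genes. The largest change any of these intervals allowed was 1.44-fold. The point estimates ran from -0.07 for Hilpda to 0.14 for Dgat2. With the ligands, the interval lay within 1.5-fold for 6 of the 8 genes with retinoic acid, 4 with TTNPB and 6 with GW1516. These are intervals per gene, not adjusted for the number of genes. Hilpda had SDs of 0.528 with palmitate and 0.406 in full-medium controls, above its pooled SD of 0.292. Slc27a4 had 0.368 with palmitate and 0.038 in full-medium controls, against a pooled SD of 0.191. Every other measurable gene had SDs below its pooled SD in both groups. Whether the palmitate intervals stay within 1.5-fold on the spread of the full-medium arrays alone was not tested.

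The ligands were also set against one another in 3 pairs, at the same dose, time and serum. Retinoic acid and TTNPB differed past the threshold in 0 of the 10 genes (0.153% of all genes), retinoic acid and GW1516 in 0 (0.352%), and TTNPB and GW1516 in 0 (0.0676%). At an unadjusted p under 0.05 the limma counts were 2 of the 10 (7.27% of all genes), 1 (9.3%) and 1 (10.5%) in the same order. The widest gap was that of Mgll, which was lower with TTNPB than with GW1516 by a log2 difference of -0.67 (95% interval -1.05 to -0.30, limma adjusted p = 0.236). Without GW1516 replicate 3 it was -0.83 (limma adjusted p = 0.0767). With array weights it passed the threshold (limma adjusted p = 0.0316), the only 1 of 17 other settings in which it did. The Mgll arrays of these ligands overlapped only at 4.58 with TTNPB against 4.54 with GW1516. Pnpla2 differed by 0.06 between TTNPB and GW1516 (95% interval -0.20 to 0.33), and by 0.18 without GW1516 replicate 3 (limma adjusted p = 0.9 and 0.585). It differed by -0.27 between retinoic acid and TTNPB (95% interval -0.53 to -0.00, limma adjusted p = 0.682). Dgat1 was 0.28 higher with retinoic acid than with GW1516 (95% interval 0.01 to 0.54, limma adjusted p = 0.525). Without GW1516 replicate 3, the highest Dgat1 array of that group, the difference was 0.50 and passed the threshold (limma adjusted p = 0.000703). This Dgat1 difference passed in 3 of 17 other settings. The 95% interval lay within 1.5-fold for 7 of the 8 measurable genes between retinoic acid and TTNPB, 5 between retinoic acid and GW1516, and 7 between TTNPB and GW1516.

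**Figure D4:**
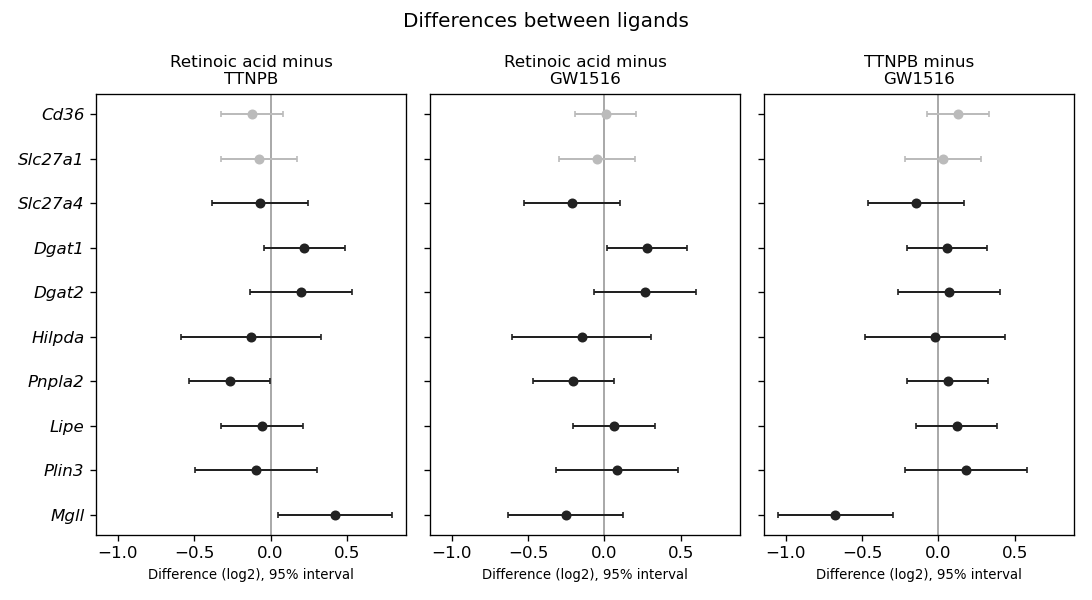
Log2 difference between each pair of ligands for the 10 genes, as points with 95% intervals. Mgll stands farthest from 0, at -0.67 for TTNPB minus GW1516, and no point passed the adjusted threshold.

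Whether palmitate acted differently from a ligand was tested as the difference of their effects, each against its own serum's control, at doses and in sera that differ. The limma test called 0 of the 10 genes for palmitate against retinoic acid (2.56% of all genes), 0 against TTNPB (0.568%) and 0 against GW1516 (1.26%). At an unadjusted p under 0.05 the counts were 0 of the 10 (12.6% of all genes), 1 (8.16%) and 1 (11%), in both cases Pnpla2. Pnpla2 had a palmitate effect smaller than that of TTNPB by a log2 difference of -0.50 (95% interval -0.87 to -0.12, limma adjusted p = 0.344). It was smaller than that of GW1516 by -0.44 (95% interval -0.81 to -0.06, limma adjusted p = 0.335).

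Beyond the 10 genes, 52 of 58 other genes of fatty acid uptake and activation, triglyceride synthesis, droplet coats and lipolysis were measured. Acsl1, Acsl3, Cideb, Ldaf1, Soat1 and Soat2 had no probe set with that single symbol and were not read. Retinoic acid changed 2 of the 52, both of which rose (3.82% of all genes rose). TTNPB changed 0, against 1.26% of all genes. GW1516 changed 2, both of which rose (1.89% of all genes rose), and palmitate changed 0, against 0.681%. At an unadjusted p under 0.05 the limma fit counted 6 of the 52 with retinoic acid, against 16.4% of all genes. It counted 2 with TTNPB (11.2% of all genes), 9 with GW1516 (15.4%) and 6 with palmitate (7%). The median log2 difference of the 52 was 0.02 with retinoic acid, 0.05 with TTNPB, -0.03 with GW1516 and -0.03 with palmitate. Over all genes it was -0.03, -0.00, -0.01 and -0.00 in the same order.

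Ddhd2, a triglyceride and phospholipid hydrolase known from neurons (chromosome 8, 25725324 to 25754474), rose with both retinoic acid and GW1516. It was 6.18, 6.40 and 6.32 with retinoic acid, 6.33, 6.34 and 6.50 with GW1516, 5.73, 5.63 and 5.97 with TTNPB, and 5.52, 5.37 and 5.57 in charcoal-serum controls. All arrays of the 3 ligands were above all controls. The rise was 1.76-fold with retinoic acid (log2 difference 0.81 ± 0.16, SE, limma adjusted p = 0.00494) and 1.86-fold with GW1516 (0.90 ± 0.16, SE, limma adjusted p = 0.00519). With TTNPB the difference was 0.29 (limma adjusted p = 0.565).

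G0s2, an inhibitor of PNPLA2 (chromosome 1, 193272160 to 193273188), rose 1.29-fold with retinoic acid, and Pnpla2 itself did not pass the test there. It was 6.47, 6.62 and 6.50 with retinoic acid against 6.07, 6.20 and 6.20 in charcoal-serum controls, groups without overlap (log2 difference 0.37 ± 0.10, SE, limma adjusted p = 0.0382). The call was lost in all 6 fits that left out 1 of these arrays, and with the mean of the gene's 2 probe sets the difference was 0.28 (limma adjusted p = 0.253). The G0s2 difference was 0.09 with TTNPB, -0.03 with GW1516 (0.05 without replicate 3) and 0.14 with palmitate, none past the test.

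Acsl4, which couples arachidonic acid and related fatty acids to coenzyme A (chromosome X, 142317993 to 142390802), rose 1.60-fold with GW1516. It was 7.86, 7.86 and 8.38 with GW1516 against 7.46, 7.36 and 7.24 in charcoal-serum controls (log2 difference 0.68 ± 0.16, SE, limma adjusted p = 0.0302). The Acsl4 call held in 2 of the 6 limma fits that left out 1 of these arrays. It was lost without GW1516 replicate 3, the highest array (0.51, adjusted p = 0.0757), and without charcoal-serum control replicate 1, 2 or 3 (adjusted p = 0.0623, 0.1 and 0.0973). With retinoic acid Acsl4 was 7.71, 7.89 and 7.73, all above the controls, a difference of 0.42 (limma adjusted p = 0.171). That difference passed in 2 of 17 other settings. The Acsl4 difference was 0.17 with TTNPB and 0.33 with palmitate (limma adjusted p = 0.819 and 0.735). The palmitate difference passed in 1 of 17 other settings. Plin2, the perilipin of most cells outside fat and a known PPAR target, was 7.24, 7.26 and 7.15 with retinoic acid and 6.78, 6.68 and 6.80 in charcoal-serum controls, a difference of 0.46 that missed the threshold (limma adjusted p = 0.109). With GW1516 replicate 3 and palmitate replicate 2 left out of the fit that Plin2 difference passed (limma adjusted p = 0.00625). Neither array is in that comparison, and the difference itself stayed 0.46. The retinoic acid difference of Plin2 passed in 3 of 17 other settings, and in 0 of the 6 that left out 1 of its arrays. With GW1516, Plin2 was 7.14, 7.54 and 6.63, of which replicate 3 alone lay below the controls, a difference of 0.35 (limma adjusted p = 0.291). Without replicate 3 the GW1516 difference was 0.58 and passed the threshold (limma adjusted p = 0.00796). This GW1516 difference passed in 3 of 17 other settings. With TTNPB the Plin2 difference was 0.01 (limma adjusted p = 0.991). The palmitate difference of Plin2 was 0.38 (limma adjusted p = 0.539), with 6.61, 6.51 and 6.57 with palmitate against 6.35, 5.95 and 6.25 in full-medium controls. Fabp5, the fatty acid carrier named in the title of the series, differed by -0.15 with retinoic acid, -0.19 with TTNPB, 0.00 with GW1516 (-0.15 without replicate 3) and -0.04 with palmitate, none past the test. These Fabp5 values come from the probe set with the highest mean of its 4.

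**Figure D5:**
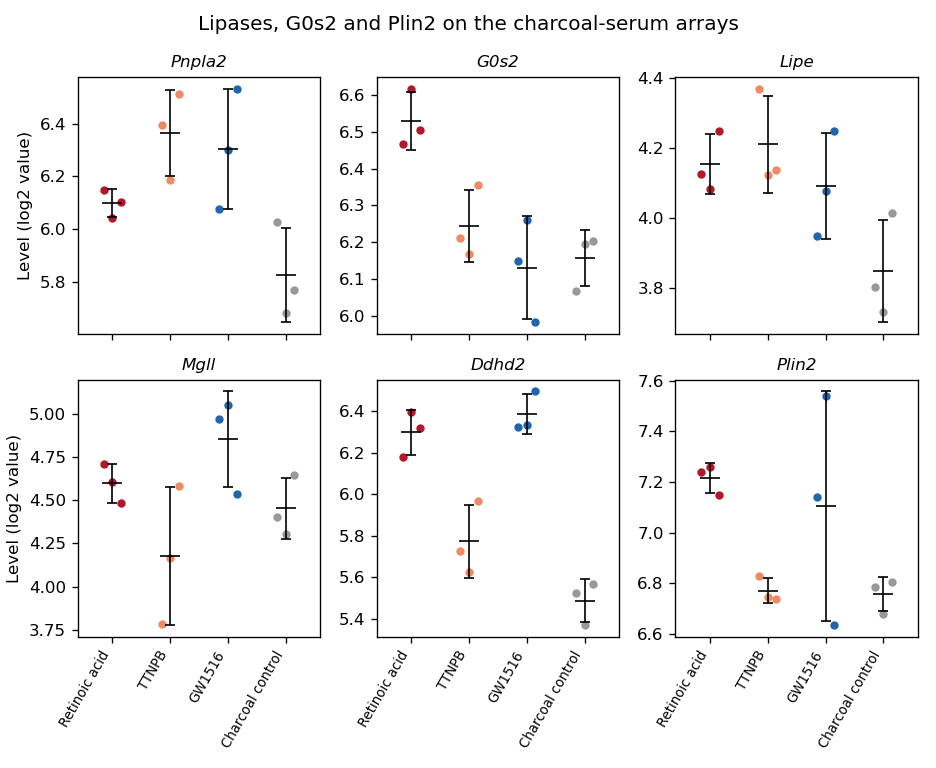
Level (log2 value) on each charcoal-serum array of the lipases Pnpla2, Lipe, Mgll and Ddhd2, the inhibitor G0s2 and the perilipin Plin2, with the mean and SD of 3 arrays. Each panel has its own axis, which does not start at 0. All ligand arrays of Pnpla2 and Ddhd2 lie above their controls, and G0s2 lies above its controls only with retinoic acid.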

How the data were processed

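RNA was hybridised to 18 Affymetrix mouse arrays, 3 per group. The values are the log2 values the authors deposited for 41345 probe sets. Partek is named in the submitters' processing notes, and its version and the method of background correction and normalization are not given in the sources used here. A log2 scale was inferred from how far the values reach. Of the probe sets, 23521 had 1 gene symbol, 1814 several and 16010 none, and the last 2 kinds were left out. Symbols were updated by Entrez number through a GRCm38.p6 table for 23328 of them. The probe set with the highest mean stood for each of the 1082 genes with more than 1, which left 22180 genes. Positions are on GRCm38.p6. Each value belongs to its own probe set, and levels of different genes are not compared.

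A limma model (version 3.58.1, R 4.3.3) of 6 group means was fitted across the 18 arrays (eBayes with a trend, 12 residual degrees of freedom). P-values are 2-sided and adjusted by the Benjamini-Hochberg method over all 22180 genes of a contrast, with a threshold of 0.05. "Rose" or "changed" means past it. Code was tested on simulated data. Dim genes stayed in the test. The background of receptor genes is the 95th percentile of the group means of 1390 genes. No array pair was a duplicate: at most 0.469% of values were identical within a charcoal-serum group and 2.55% within a full-medium group. The labels give no scan date or batch. Array values carry no counting depth, and the number of arrays limits the precision.

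The members, gene lists and background were chosen with earlier results of these data known. Outside the 10 genes, the text names up to 4 genes past the threshold from each of 4 groups (uptake and activation, triglyceride synthesis, droplet coat and assembly, lipolysis), with Plin2 and Fabp5 always. The 3 genes most correlated with a called member are named too. Alternatives were fits on fewer groups or on 1 serum, a replicate block, no trend or a robust prior, quantile or median scaling, array weights, dim genes left out, the mean of all probe sets, GW1516 replicate 3 and palmitate replicate 2 left out, and each array left out in turn.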

Additional observations from a re-analysis of the deposited data

Results flagged for a closer look

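The difference between a palmitate and a ligand effect, each against its own serum's control, was also tested in the 52 genes beside the 10. The limma test called 2 of the 52 against retinoic acid (2.56% of all genes), 1 against TTNPB (0.568%) and 2 against GW1516 (1.26%). The genes called were Ddhd2 and Lpin1. The sera, the scale of their arrays and the doses also differ between palmitate and ligand effects, and their part was not tested. For Ddhd2, the palmitate effect minus the retinoic acid effect was -1.17 on the log2 scale (limma adjusted p = 0.00829), and minus the GW1516 effect -1.25 (limma adjusted p = 0.00943). Ddhd2 was 2.99, 3.07 and 3.16 with palmitate and 2.95, 3.63 and 3.70 in full-medium controls. The difference was -0.35 and did not pass the test (limma adjusted p = 0.647). Without full-medium control replicate 1 it was -0.59 and passed (limma adjusted p = 0.0462), the only 1 of 17 other settings in which it did. The Ddhd2 differences of effects were past the threshold in 22 of 22 other settings against retinoic acid and in 21 of 22 against GW1516.

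Lpin1 encodes a phosphatidate phosphatase that makes diacylglycerol, the substrate of the DGAT enzymes, and was named after its values were seen. The palmitate effect on it minus the retinoic acid effect was -0.92 (limma adjusted p = 0.0195), minus the TTNPB effect -0.97 (limma adjusted p = 0.0392) and minus the GW1516 effect -0.93 (limma adjusted p = 0.0322). Lpin1 was 3.61, 3.07 and 3.46 with palmitate and 3.94, 3.87 and 4.04 in full-medium controls, without overlap, and the difference of -0.57 missed the threshold (limma adjusted p = 0.094). Its ligand differences were 0.34 with retinoic acid, 0.39 with TTNPB and 0.36 with GW1516, none past the test. The Lpin1 differences of effects were past the threshold in 17 of 22 other settings against retinoic acid, and in 11 of 22 against each of TTNPB and GW1516.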

How the results depend on the processing

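No result changed direction past the threshold in any alternative. Of the 10 genes, retinoic acid changed 1 (Dgat1) in the fit on its own groups, with array weights, and with GW1516 replicate 3 and palmitate replicate 2 left out. TTNPB changed 0 in the fit on its own groups, on arrays of the same serum, with the replicate block and with median-centred arrays. GW1516 changed 1 (Pnpla2) with no trend, with a robust prior and with dim genes left out. Between ligands, 1 gene (Dgat1) differed for retinoic acid and GW1516 with array weights and without those 2 arrays, and 1 (Mgll) for TTNPB and GW1516 with array weights. Palmitate and retinoic acid effects differed in 1 gene (Slc27a4) without those 2 arrays. Of the 52 other genes, retinoic acid changed 5 in the fit on its own groups and without the 2 arrays, 4 with array weights, and 1 on arrays of the same serum, with the replicate block, with median-centred arrays and with the mean of all probe sets. TTNPB changed 1 in the fit on its own groups, with array weights and without the 2 arrays. GW1516 changed 0 in the fit on its own groups and 4 with array weights. Palmitate changed 3 with array weights, and 1 with dim genes left out or without the 2 arrays. Leaving out 1 array at a time, the counts among the 10 genes ran from 0 to 0 for retinoic acid, 0 to 1 for TTNPB, 0 to 1 for GW1516, 0 to 0 for palmitate and 0 to 1 for retinoic acid against GW1516, and were 0 to 0 for the other ligand pairs and the differences of effects. Among the 52 they ran from 1 to 2 for retinoic acid, 0 to 0 for TTNPB, 1 to 3 for GW1516 and 0 to 1 for palmitate. The share of all genes called in each setting is not given here, so these counts are not read as results about these genes. The cause of these moves was not tested. The number of genes above background was 8 at the 99th percentile of the receptor genes, and 9 or 10 per group at their median.

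The labels do not say whether same-numbered arrays share more than a number. Correlations of their deviations lay between -0.28 and 0.21, which cannot tell whether they shared a culture or batch. For TTNPB and charcoal-serum controls the correlation was 0.21 at replicates 2 and 3. With the replicate block, the Pnpla2 difference with TTNPB had an adjusted p of 0.0618 in limma. Signal near background limits Cd36 and Slc27a1, and 3 arrays per group limit the rest.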

Other observations

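Of the 52 other genes of uptake, triglyceride synthesis, droplets and lipolysis, 28 were above background in all 6 groups, 16 in none and 8 in some. The following were chosen after their values were seen. Among the uptake genes, the transporter gene Slc27a6 was measurable where Slc27a1 was not. It was 5.46, 5.51 and 4.84 with retinoic acid, 5.13, 5.14 and 5.30 with TTNPB, 5.35, 4.94 and 5.30 with GW1516, and 4.92, 5.03 and 4.98 in charcoal-serum controls. Slc27a2 and Slc27a5, known from liver, were under background in all groups. Among the droplet coats, Plin5, Cidea and Cidec, known from fat, heart or muscle, were under background in all groups, and Plin1 and Plin4 in some. Plin2 was above background in every group, like Plin3. Bscl2 and Fitm2, which take part in droplet formation at the endoplasmic reticulum, were above background throughout, Bscl2 at 6.44, 6.28 and 6.51 with palmitate against 6.18, 6.37 and 6.44 in full-medium controls.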
